A study of Homo sapiens with 22 samples.

Results

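RNA levels of 10 genes of the NF-kB pathway were examined in human renal cancer cell lines: the subunit genes NFKB1, NFKB2, RELA, RELB and REL, the inhibitor genes NFKBIA, NFKBIB and NFKBIE, and the feedback genes TNFAIP3 and BIRC3. They were chosen by gene symbol, and all 10 were found among the 25343 genes listed for each library. Polyadenylated RNA was sequenced in 22 libraries of 7 groups, all from cells grown in RPMI medium with 10% FBS and taken at 80% confluence. In 16 libraries the cells were 786-M1A under CRISPR interference (CRISPRi), where a guide RNA brings a repressor to a DNA site by means of a catalytically dead Cas9: 4 libraries carried iMAE-1.2, another 4 iMAE-1.1 (together called the iMAE-1 guides here), 2 iMAE-126 and 6 a non-targeting guide (SC). The other libraries came from lines without CRISPRi, 2 each from OS-LM1, 786-M1A and 786-O. 786-O is an established line from a clear cell renal carcinoma, 786-M1A is known as its metastatic derivative, and OS-LM1 is a renal cancer line that is known as metastatic and of another origin. The study profiled enhancers in metastatic cancer, and neither the element nor the gene that each iMAE guide targets is stated in the sources used here. Whether libraries of one group came from separate cultures, or a CRISPRi line from 1 clone, is not stated either, and p-values therefore reflect variation among libraries that can be technical.

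NF-kB factors are dimers of the 5 subunits. In the canonical branch, dimers such as RELA with p50, which is cut from the NFKB1 protein, are held in the cytoplasm by IkB proteins until the IKK kinase marks the IkB for destruction. In the alternative branch, the kinase NIK starts the processing of the NFKB2 protein to p52, which pairs with RELB. NFKBIA (IkB alpha), TNFAIP3 (A20, a ubiquitin-editing enzyme) and BIRC3 (cIAP2, a ubiquitin ligase) are well known as genes that NF-kB itself switches on, and the first 2 then dampen the signal.

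The κB consensus, the degenerate motif bound by NF-kB dimers, was searched by its letters on both strands in the 250 bases before each gene start listed by RefSeq (GRCh38.p14). The deposited counts rest on the older build hg19, so these windows serve as sequence context only. Windows were listed for 8 of the 10 genes, RELB and NFKBIE being the others, and 7 of these 8 had a match in at least 1 window, RELA being the exception. Over all 35116 windows 5.21% held a match, and over all 27305 genes with a window 6.28% did. The windows of 3 feedback genes and of REL are printed because the contrasts described below turn on these genes. Capitals mark the matches, and the first letter of a match stands 67 and 55 bases before the gene start in TNFAIP3, 81 bases in NFKBIA and 199 and 135 bases in BIRC3. In REL, matches that start 47 and 46 bases before the gene start overlap and are seen as 1 run of capitals. A match is a stretch of letters and not a measured binding site.
TNFAIP3, chr6:137867009-137867258, plus strand: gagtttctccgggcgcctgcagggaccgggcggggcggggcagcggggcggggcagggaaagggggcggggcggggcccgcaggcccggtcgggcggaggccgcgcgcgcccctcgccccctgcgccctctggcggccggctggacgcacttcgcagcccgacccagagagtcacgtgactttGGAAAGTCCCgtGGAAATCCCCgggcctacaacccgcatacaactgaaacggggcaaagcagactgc
NFKBIA, chr14:35404750-35404999, minus strand: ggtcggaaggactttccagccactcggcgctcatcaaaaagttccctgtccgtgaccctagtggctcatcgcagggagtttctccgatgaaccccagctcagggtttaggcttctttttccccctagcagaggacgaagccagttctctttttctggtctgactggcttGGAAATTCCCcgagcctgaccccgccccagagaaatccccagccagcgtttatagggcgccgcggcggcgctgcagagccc
BIRC3, chr11:102317234-102317483, plus strand: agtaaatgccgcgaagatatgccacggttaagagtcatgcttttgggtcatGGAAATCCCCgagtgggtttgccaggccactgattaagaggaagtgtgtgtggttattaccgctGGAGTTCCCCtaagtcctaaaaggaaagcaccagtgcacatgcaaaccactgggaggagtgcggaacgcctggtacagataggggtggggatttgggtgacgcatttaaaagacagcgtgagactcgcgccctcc
REL, chr2:60881324-60881573, plus strand: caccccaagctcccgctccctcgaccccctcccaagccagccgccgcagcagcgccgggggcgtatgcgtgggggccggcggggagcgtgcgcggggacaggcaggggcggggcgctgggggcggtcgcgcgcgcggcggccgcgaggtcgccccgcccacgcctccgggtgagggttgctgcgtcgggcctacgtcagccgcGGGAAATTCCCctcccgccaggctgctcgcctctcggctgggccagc

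Library totals, in units of 1e6 expected counts, lay between 9.06 and 36.2 in the CRISPRi and OS-LM1 libraries and between 39.7 and 52.7 in 786-M1A and 786-O, and every one of the 10 genes passed the filter on low counts in every fit. The CRISPRi libraries fell into 2 library sets that the labels do not name. Set A holds the pair of iMAE-126 libraries with SC replicates 1 and 2, whose count-weighted mean gene length was 3528 to 3716 bases. Set B holds the libraries of the iMAE-1 guides with SC replicates 3 to 6, at 3264 to 3395 bases. The mean gene length was 3909 to 3982 bases in 786-M1A and 786-O, and 3617 and 3391 bases in OS-LM1 replicates 1 and 2. The renal lineage factor PAX8 was present in every group at 168.7 CPM or more, and the T cell gene CD3E had no count in any library. PTPRC, the pan-leukocyte gene, reached at most 0.610 CPM, whereas LCP1, an actin-bundling gene of blood cells and many tumour lines, had 125 to 208 CPM in OS-LM1, against 17.2 to 17.9 CPM in 786-O. Summed over 7 leukocyte markers, of which LCP1 was the highest in every group, the level was 128 to 210 CPM in OS-LM1, against 7.92 to 8.92 CPM in 786-M1A and 17.9 to 18.5 CPM in 786-O, and its part in the OS-LM1 results was not tested. Levels below are counts per 1e6 counts of the normalised library (CPM), and TPM, which is scaled for gene length, is used to compare one gene with another. In such bulk RNA, fewer cells that express a gene and less of its RNA per cell cannot be told apart.

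All 10 genes were expressed in all 7 groups. In 786-M1A the highest length-scaled levels were those of RELA, the main activating subunit, at 73.8 ± 1.7 TPM, NFKB2 at 60.8 ± 0.89 TPM and NFKBIA at 60.4 ± 0.47 TPM (SD, n = 2 each). The lowest were TNFAIP3 at 11.5 ± 0.11 TPM and REL at 6.71 ± 0.15 TPM (SD, n = 2 each). The first 4 genes in TPM, RELA, NFKB2, NFKBIA and NFKB1, came in that order in 786-O too. In OS-LM1 NFKBIA was first at 142 ± 12 TPM, TNFAIP3 was at rank 4 with 62.8 ± 4.5 TPM, and NFKB1 was at rank 8 with 24.9 ± 8.3 TPM (SD, n = 2 each). In iMAE-1.1 and iMAE-1.2, NFKB2 was first at means of 105 and 98.9 TPM. NFKB1 was at rank 8 in both, with 18.2 and 17.2 TPM. NFKB2 was first in SC as well, at a mean of 86.6 TPM. REL, which encodes the subunit c-Rel and is best known from lymphocytes, had rank 9 or 10 in all 7 groups.

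**Figure D1:**
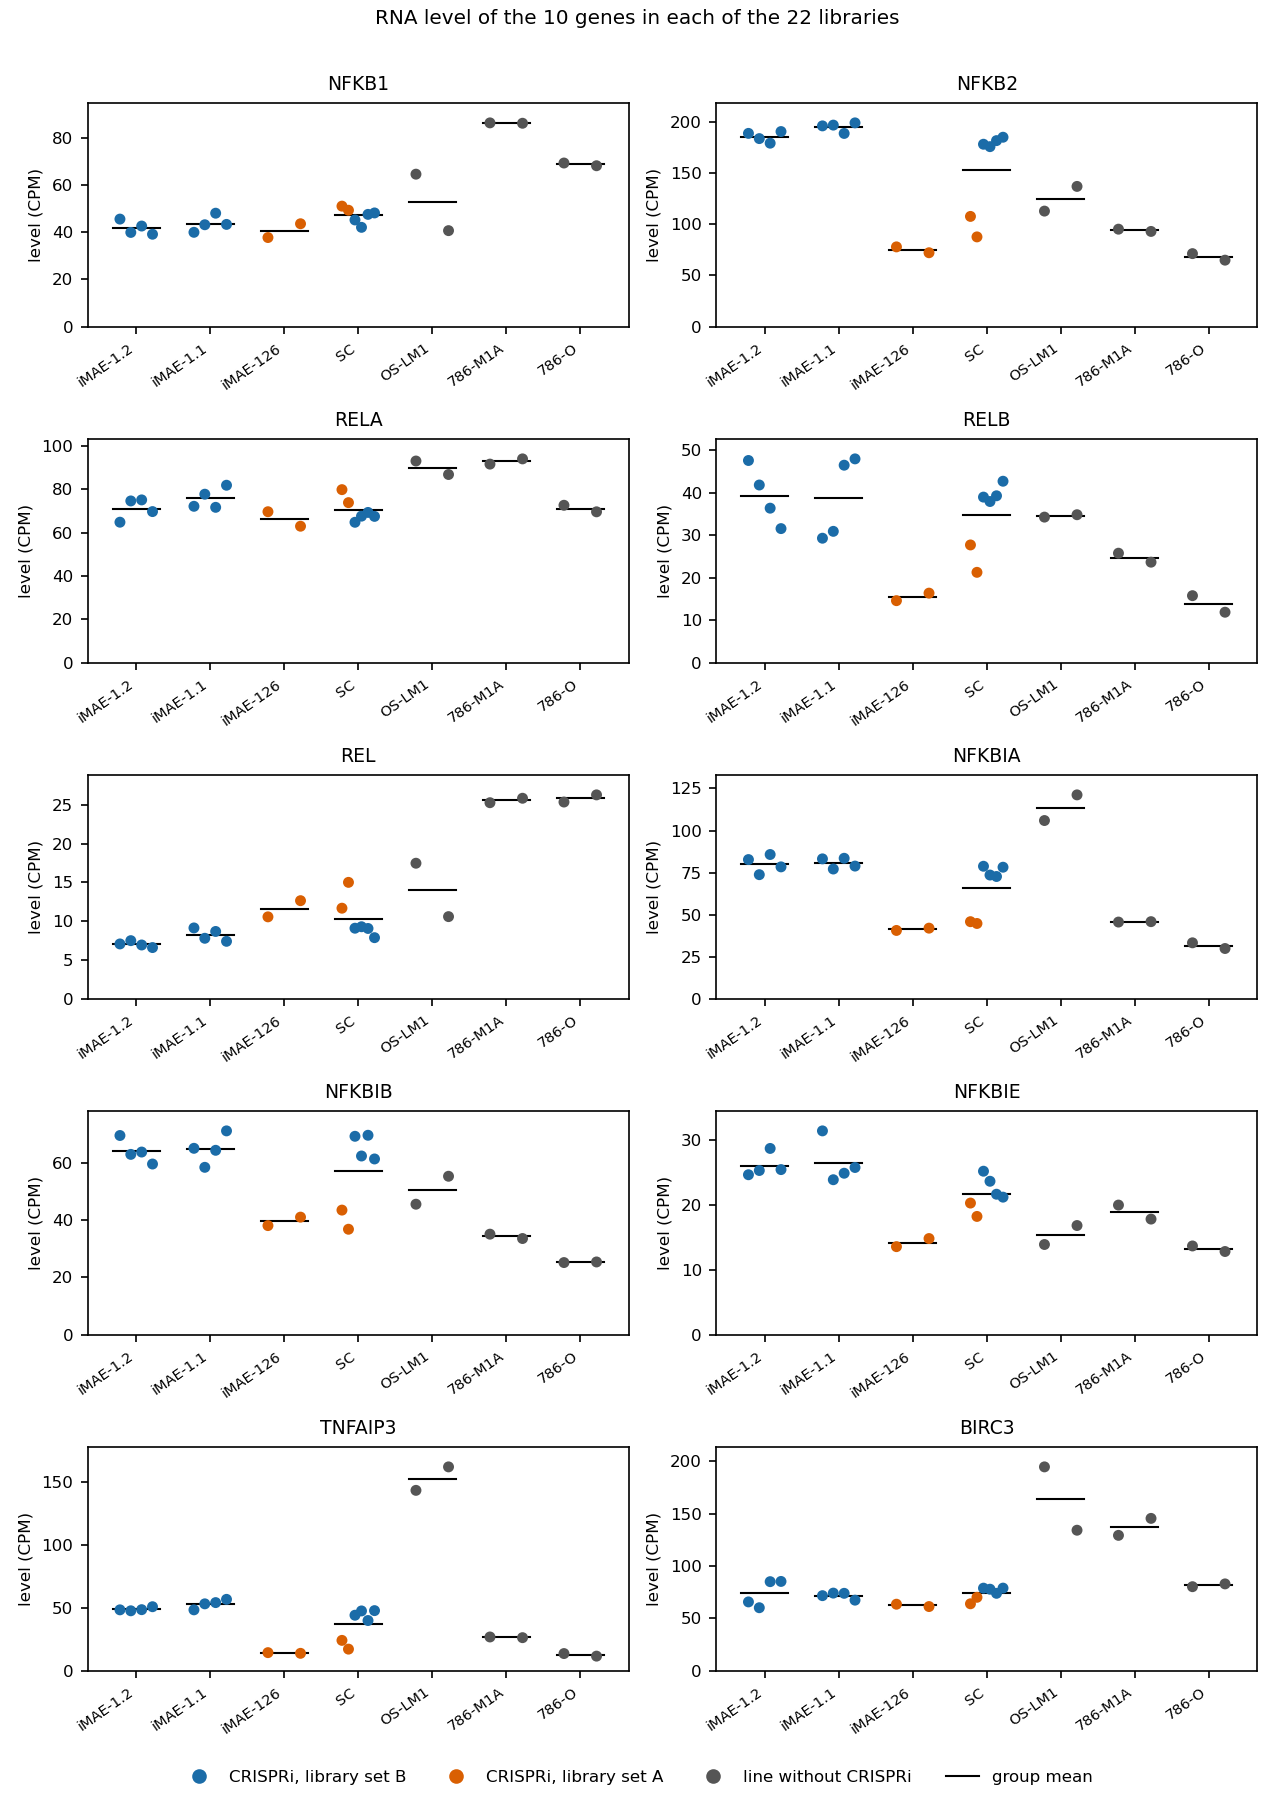
RNA level in CPM (vertical axes, linear from 0) of each of the 10 genes in every library, with groups along the horizontal axes, 1 point per library and a line at the group mean. Blue points are CRISPRi libraries of set B, orange points those of set A and grey points lines without CRISPRi. TNFAIP3 reaches 144 and 162 CPM in OS-LM1 and at most 56.8 CPM elsewhere. The SC points separate by library set, with set A the higher in NFKB1, RELA and REL and the lower in the others. The sets were cut from the same counts, and the share of all genes that separate in this way was not computed.

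The comparison of 786-M1A with 786-O asks what differs between a metastatic derivative and its parent line. In 786-M1A, 8 of the 10 genes were called higher and none lower at an adjusted p under 0.05 in edgeR's quasi-likelihood test, where 31.0% of all genes were called, 14.7% higher and 16.3% lower. The median log2 fold change was 0.45 over the 10 genes and -0.02 over all genes tested. TNFAIP3 had 26.8 and 26.3 CPM in 786-M1A, against 13.6 and 11.6 CPM in 786-O. Its levels in the lines did not overlap, and the difference was 2.05-fold (log2 fold change 1.04 ± 0.12 SE, adjusted p = 0.00043). The alternative-branch subunit RELB had 25.8 and 23.6 CPM in 786-M1A, against 15.8 and 11.9 CPM in 786-O, and was 1.74-fold higher (adjusted p = 0.00402).

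BIRC3 had 129 and 145 CPM in 786-M1A, against 80.2 and 82.8 CPM in 786-O (1.64-fold, adjusted p = 0.0148). NFKBIA had 45.6 and 45.8 CPM in 786-M1A, against 33.2 and 29.8 CPM in 786-O (1.41-fold, adjusted p = 0.00982). Both feedback genes were thus higher in each 786-M1A library than in each 786-O library. NFKBIE, NFKB2, NFKBIB and RELA were 1.27- to 1.39-fold higher in 786-M1A. Their adjusted p-values lay between 0.0255 and 0.0295.

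The other 2 genes were not called. NFKB1 had 86.3 and 86.1 CPM in 786-M1A, against 69.3 and 68.1 CPM in 786-O (log2 fold change 0.29 ± 0.19 SE, adjusted p = 0.275). The 2 NFKB1 groups did not overlap, and with 786-M1A and 786-O fitted without OS-LM1, where NFKB1 had 64.5 and 40.6 CPM, the adjusted p was 0.00036. The fit without OS-LM1 called 8733 of all genes in place of 5064, and the cause of the gain was not tested. REL had 25.3 and 25.8 CPM in 786-M1A, against 25.3 and 26.3 CPM in 786-O (log2 fold change -0.05 ± 0.19 SE, adjusted p = 0.857), and these groups overlapped. The calls rest on few libraries. With any single 786-M1A or 786-O library left out, only TNFAIP3 and RELB remained called among the 10.

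Of the pathway genes outside the 10, the ligand TNF had 1.29 and 1.57 CPM in 786-M1A, against 0.318 and 0.124 CPM in 786-O (log2 fold change 2.65 ± 0.38 SE, adjusted p = 0.00131). Of 23 other well-known NF-kB target genes tested, 9 were higher and 5 lower in 786-M1A, where 31.0% of all genes were called. The neutrophil chemokine CXCL8 had 23.9 and 25.5 CPM in 786-M1A, against 4.03 and 4.63 CPM in 786-O (log2 fold change 2.47, adjusted p = 1.59e-05), and the cytokine IL6 had 8.23 and 8.80 CPM in 786-M1A, against 1.93 and 1.47 CPM in 786-O (log2 fold change 2.29, adjusted p = 2.64e-05). PTGS2, the inducible cyclooxygenase, was lower in 786-M1A, at no more than 0.0222 CPM, against 1.06 CPM or more in 786-O (adjusted p = 0.000139), and no fold is given because 786-M1A had at most 1 count per library. NFKBIZ, an atypical nuclear IkB, was lower in 786-M1A (log2 fold change -1.83 ± 0.12 SE, adjusted p = 2.53e-05). Of 22 adaptors and kinases 8 were higher and 2 lower. The receptor adaptor TRAF5 led them (log2 fold change 1.36, adjusted p = 0.000233). Of 11 receptors 2 were higher and 2 lower, of 6 ligands tested 2 and 2, and of 14 other regulators 1 was higher and 2 were lower.

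The mean levels of NFKBIA, TNFAIP3 and BIRC3 were highest in OS-LM1 among the 7 groups. Against 786-O, 7 of the 10 genes were called higher and 1 lower, where 63.6% of all genes were called, 30.4% higher and 33.3% lower, and the median log2 fold change was 0.90 over the 10 genes and -0.01 over all genes tested. TNFAIP3 had 144 and 162 CPM in OS-LM1, against 13.6 and 11.6 CPM in 786-O. Every library of the other 6 groups lay below both OS-LM1 libraries, and the difference from 786-O was 11.9-fold (log2 fold change 3.57 ± 0.13 SE, adjusted p = 3.05e-07). NFKBIA had 106 and 121 CPM in OS-LM1, against 33.2 and 29.8 CPM in 786-O (3.52-fold, adjusted p = 5.04e-06). RELB had 34.2 and 34.8 CPM in OS-LM1, against 15.8 and 11.9 CPM in 786-O, and was 2.45-fold higher (adjusted p = 0.000134).

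BIRC3, NFKBIB and NFKB2 were 1.79- to 1.98-fold higher in OS-LM1 than in 786-O, with adjusted p-values from 0.000186 to 0.00137. RELA, the main partner of p50, differed little, with 93.0 and 86.8 CPM in OS-LM1, against 72.6 and 69.6 CPM in 786-O (1.24-fold, adjusted p = 0.0224, above the threshold when any 786-M1A or 786-O library was left out). NFKBIE was not called, at a log2 fold change of 0.18 ± 0.14 SE (adjusted p = 0.279). NFKB1 was not called either, at a log2 fold change of -0.41 ± 0.19 SE (adjusted p = 0.090). REL was the one gene called lower, with 17.5 and 10.6 CPM in OS-LM1, against 25.3 and 26.3 CPM in 786-O (log2 fold change -0.89 ± 0.20 SE, adjusted p = 0.00476).

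OS-LM1 against 786-M1A had 5 genes higher and 2 lower, where 68.7% of all genes were called, 34.4% higher and 34.3% lower. The members' count is close to that share, and the median log2 fold change was 0.34 over the 10 genes and 0.04 over all genes tested. TNFAIP3 was 5.79-fold higher in OS-LM1 (adjusted p = 1.08e-06) and NFKBIA 2.50-fold (adjusted p = 1.94e-05). NFKBIB, RELB and NFKB2 were 1.33- to 1.47-fold higher, with adjusted p-values from 0.00268 to 0.0143, and neither RELB nor NFKB2 was called when a 786-M1A library was left out. NFKB1 had 64.5 and 40.6 CPM in OS-LM1, against 86.3 and 86.1 CPM in 786-M1A (log2 fold change -0.70 ± 0.19 SE, adjusted p = 0.0109), and REL was lower too, at a log2 fold change of -0.84 ± 0.20 SE (adjusted p = 0.00577). BIRC3 had 195 and 134 CPM in OS-LM1, against 129 and 145 CPM in 786-M1A, which overlapped (adjusted p = 0.186). RELA and NFKBIE were not called, with log2 fold changes of -0.04 ± 0.10 SE and -0.30 ± 0.13 SE (adjusted p = 0.755 and 0.0764).

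The 2 OS-LM1 libraries were unlike each other for the genes with long transcripts. REL (7731 to 7827 bases), BIRC3 (4978 to 6912 bases) and NFKB1 (4082 to 4085 bases) each had a lower level in replicate 2, which had the lower mean gene length, than in replicate 1. For REL these were 10.6 CPM in replicate 2 and 17.5 CPM in replicate 1. NFKBIA, at 1567 bases, was higher in replicate 2. TNFAIP3, at 4690 to 4732 bases, was higher there too. The part of this in the results was not tested. NFKB1, not called against 786-O with both OS-LM1 libraries, had a log2 fold change of -0.80 without OS-LM1 replicate 1. With each library left out in turn, that value ran from -0.80 to -0.11. Without OS-LM1 replicate 2, the log2 fold changes against 786-M1A were 0.52 for BIRC3 and -0.43 for NFKBIE. The 786-O and 786-M1A libraries of the same comparisons had mean gene lengths above both OS-LM1 libraries.

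**Figure D2:**
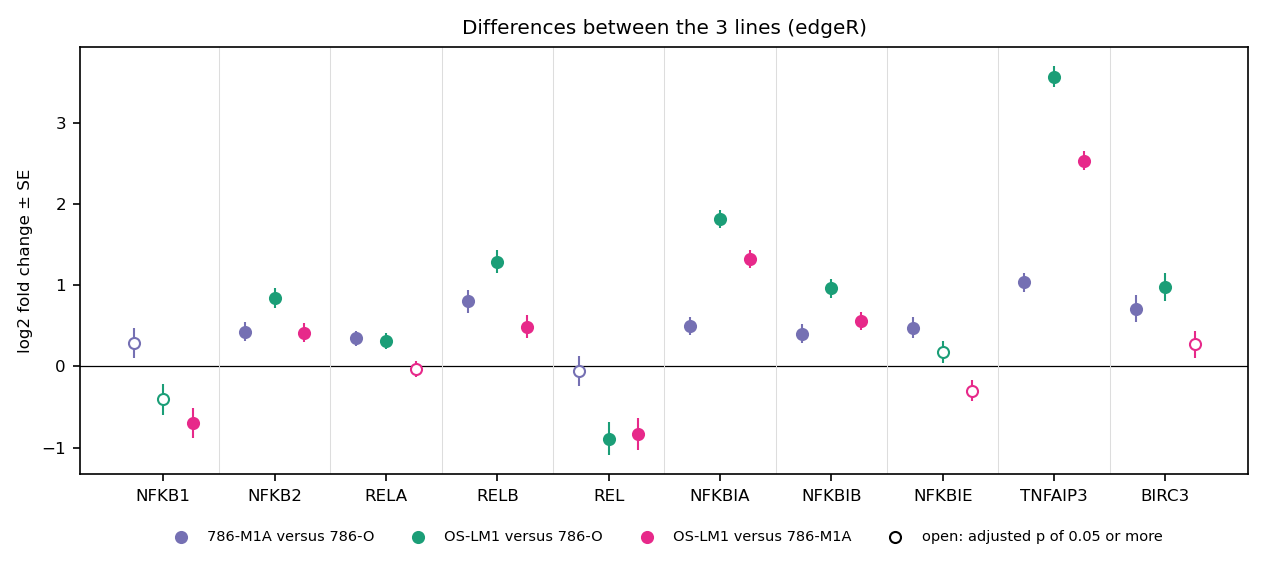
Log2 fold change (vertical axis) with its standard error as a bar for each of the 10 genes (horizontal axis) in 786-M1A versus 786-O, OS-LM1 versus 786-O and OS-LM1 versus 786-M1A; filled points have an adjusted p under 0.05. TNFAIP3 stands at 1.04, 3.57 and 2.53 and REL at -0.05, -0.89 and -0.84. The 3 comparisons share libraries.

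Around the 10 genes, OS-LM1 differed from 786-O in each list of pathway genes, where 63.6% of all genes were called. All 6 ligands tested were higher in OS-LM1 than in 786-O, TNF among them at 9.55 and 8.98 CPM in OS-LM1, against 0.318 and 0.124 CPM in 786-O (adjusted p = 7.41e-06). Of 10 ligands listed, only these 6 passed the filter on low counts, in which the OS-LM1 libraries take part. IL1B passed through OS-LM1, with 1.63 and 2.52 CPM there, against at most 0.0249 CPM in 786-O and 0.0665 CPM in 786-M1A. The count of 6 is thus partly set by the filter. Of 23 target genes 19 were higher and 2 lower. These are the ones of 24 listed that passed the same filter. How many passed only through OS-LM1 was not counted, so the counts of higher targets in OS-LM1, here and against 786-M1A, may be partly set by the filter too. CXCL8 had 745 and 611 CPM in OS-LM1, against 4.03 and 4.63 CPM in 786-O (log2 fold change 7.26 ± 0.18 SE, adjusted p = 7.11e-08). IL6 had 472 and 461 CPM in OS-LM1, against 1.93 and 1.47 CPM in 786-O (log2 fold change 8.07 ± 0.17 SE, adjusted p = 5.04e-08), and the chemokine CXCL1 averaged 791 ± 55 CPM in OS-LM1 and 0.676 ± 0.17 CPM in 786-O (SD, n = 2 each). The other lists moved both ways: 8 of 22 adaptors and kinases were higher and 7 lower, with IKBKB, a catalytic subunit of IKK, higher (log2 fold change 1.11, adjusted p = 7.70e-05) and MAP3K14, which encodes NIK, lower (log2 fold change -1.05, adjusted p = 7.16e-05). Of 11 receptors 6 were higher, CD40 at a log2 fold change of 1.85 (adjusted p = 4.91e-06), and 3 lower. Of 14 other regulators 6 were higher and 6 lower. ZC3H12A, an RNase that cuts cytokine mRNAs, was among the higher (log2 fold change 3.33, adjusted p = 6.18e-07). Against 786-M1A, where 68.7% of all genes were called, the same 6 ligands were all higher. Of 23 targets 17 were higher and 1 lower, and of the adaptors and kinases 6 were higher and 9 lower. Among receptors 6 were higher and 3 lower, and among other regulators 7 were higher and 7 lower.

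SC cells and 786-M1A cells are the same line with and without the CRISPRi vectors and non-targeting guide, and their libraries also differ in mean gene length. Of the 10 genes 2 were called higher and 4 lower in SC, where 53.0% of all genes were called, 27.8% higher and 25.3% lower, so the share of members called is near that of all genes. REL had a lowest, median and highest level of 7.86, 9.18 and 15.0 CPM in SC, against 25.3 and 25.8 CPM in 786-M1A (log2 fold change -1.2 ± 0.21 SE, adjusted p = 0.00333). BIRC3 had 63.8, 75.8 and 78.8 CPM in SC, against 129 and 145 CPM in 786-M1A (log2 fold change -0.79 ± 0.10 SE, adjusted p = 0.0013). NFKB1 had 42.0, 47.8 and 51.0 CPM in SC, against 86.3 and 86.1 CPM in 786-M1A (log2 fold change -0.76 ± 0.09 SE, adjusted p = 0.00103). None of these 3 genes overlapped between the groups, and without 786-M1A replicate 1, or without replicate 2, they were the 3 that remained called among the 10. Without any one of SC replicates 3 to 6 these 3 and NFKBIB were called, without SC replicate 1 there were 8 calls, and without SC replicate 2 all 10 genes were called. RELA was lower by less (log2 fold change -0.29 ± 0.10 SE, adjusted p = 0.0323). Lack of overlap was not particular to REL, BIRC3 and NFKB1, as RELA and NFKBIB did not overlap between the groups either. The share of all genes without overlap was not computed. NFKB2 and NFKBIB were called higher, at log2 fold changes of 0.80 ± 0.29 SE (adjusted p = 0.045) and 0.84 ± 0.25 SE (adjusted p = 0.0199), and NFKB2 was just above the threshold with DESeq2's size factors in edgeR (adjusted p = 0.0533). The median log2 fold change was 0.44 over the 10 genes and 0.07 over all genes tested.

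Which genes were called depended on which SC libraries were used. NFKB2 had 108 and 87.6 CPM in SC replicates 1 and 2 and 176 to 185 CPM in SC replicates 3 to 6, against 95.2 and 92.9 CPM in 786-M1A. TNFAIP3 had 24.1 and 17.1 CPM in SC replicates 1 and 2 and 39.9 to 47.8 CPM in SC replicates 3 to 6, against 26.8 and 26.3 CPM in 786-M1A. SC replicates 1 and 2 thus lay near or below the 786-M1A levels, on both sides of them for NFKB2, and SC replicates 3 to 6 lay above them. NFKBIB had 43.5 and 36.8 CPM in SC replicates 1 and 2 and 61.4 to 69.7 CPM in SC replicates 3 to 6, against 35.1 and 33.6 CPM in 786-M1A. From SC replicates 1 and 2 alone came 4 calls: NFKBIB was higher (log2 fold change 0.34) and NFKB1, REL and BIRC3 were lower (-0.67, -0.85 and -0.93), while NFKB2 had a log2 fold change of 0.16 and TNFAIP3 one of -0.24, and neither was called. With SC replicates 3 to 6 alone all 10 were called. NFKB2 (0.99), NFKBIB (0.99), TNFAIP3 (0.81), NFKBIA (0.79), RELB (0.74) and NFKBIE (0.33) were higher on the log2 fold change scale, and REL (-1.48), NFKB1 (-0.85), BIRC3 (-0.77) and RELA (-0.41) were lower. Of the 10 genes, NFKB1, REL and BIRC3 were called lower with either subset and NFKBIB higher. RELA had a log2 fold change of -0.17 with SC replicates 1 and 2 alone and was not called (adjusted p = 0.0792).

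**Figure D3:**
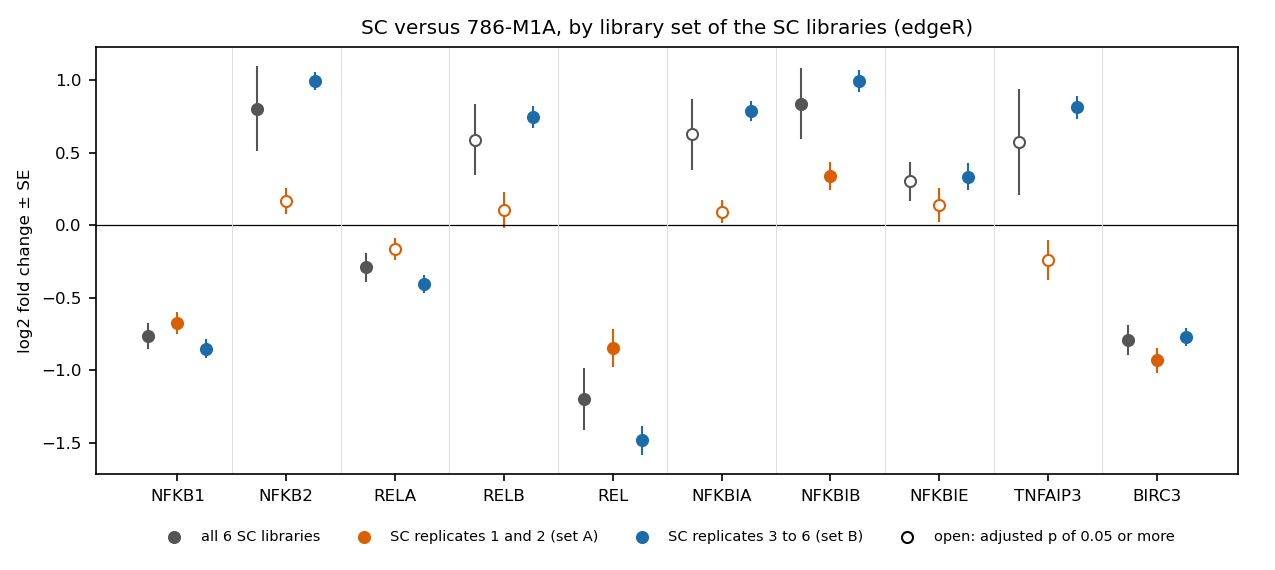
Log2 fold change of SC versus 786-M1A (vertical axis) with its standard error for each gene (horizontal axis), with all 6 SC libraries (grey), SC replicates 1 and 2 (orange) and SC replicates 3 to 6 (blue); filled points have an adjusted p under 0.05. NFKB1, RELA, REL and BIRC3 are below 0 in all 3, and TNFAIP3 stands at 0.57, -0.24 and 0.81.

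Neighbouring genes split by library set as well. CXCL8 had 22.5 and 18.8 CPM in SC replicates 1 and 2 and 94.8 to 112 CPM in SC replicates 3 to 6, against 23.9 and 25.5 CPM in 786-M1A. IL6 had 5.48 and 6.0 CPM in SC replicates 1 and 2 and 36.3 to 40.6 CPM in SC replicates 3 to 6, against 8.23 and 8.80 CPM in 786-M1A. The following counts pool both library sets, and 53.0% of all genes were called with all SC libraries. In SC, 9 of 22 targets were higher and 2 lower than in 786-M1A, and 2 of 3 ligands were higher. Of 11 receptors 4 were higher and 3 lower, and of 22 adaptors and kinases 7 were higher and 9 lower. Of 14 other regulators 7 were higher and 5 lower. The chemokine CCL5 was higher, at a log2 fold change of 2.72 ± 0.28 SE (adjusted p = 0.000849), and BIRC2, the close paralog of BIRC3, was lower, at -1.01 ± 0.10 SE (adjusted p = 0.000678). Mean gene length and the library sets moved with these differences, and the part of either in the results was not tested.

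The iMAE-1 guides were each compared with SC in a fit with the library set as a term, so that the comparison rests on SC replicates 3 to 6. None of the 10 genes was called in either, where 1.79% of all genes were called for iMAE-1.1 (0.911% higher and 0.878% lower) and 2.73% for iMAE-1.2 (1.39% higher and 1.34% lower). At an unadjusted p under 0.05 there were 3 genes for iMAE-1.1 (TNFAIP3, RELA and NFKBIE) and 1 for iMAE-1.2 (REL), and DESeq2 called none of the 10 and had 4 and 1 at that unadjusted p. The log2 fold changes of the 10 genes ran from -0.11 to 0.24 with iMAE-1.1 and from -0.33 to 0.19 with iMAE-1.2. Standard errors were 0.06 to 0.16. TNFAIP3 had 48.4, 53.2, 54.2 and 56.8 CPM in iMAE-1.1, against 44.1, 47.6, 39.9 and 47.8 CPM in SC replicates 3 to 6 (log2 fold change 0.24 ± 0.09 SE, adjusted p = 0.184). These did not overlap, and neither did the levels of RELA and NFKB2 with this guide, yet none of these differences passed the adjustment. The share of all genes without overlap was not computed for either guide. REL had 7.05, 7.48, 6.92 and 6.59 CPM in iMAE-1.2, against 9.08, 9.27, 9.05 and 7.86 CPM in SC replicates 3 to 6 (log2 fold change -0.33 ± 0.12 SE, adjusted p = 0.181), again without overlap.

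RELB divided both groups. It had 29.3, 30.9, 46.5 and 47.9 CPM in iMAE-1.1 replicates 1 to 4 and 47.6, 41.8, 36.3 and 31.5 CPM in iMAE-1.2 replicates 1 to 4, against 39.0, 37.9, 39.3 and 42.7 CPM in SC replicates 3 to 6. Its log2 fold changes were -0.03 ± 0.16 SE with iMAE-1.1 and -0.02 ± 0.16 SE with iMAE-1.2, with the largest standard errors among the 10 genes in both. The low libraries of one guide had the opposite replicate numbers to those of the other. Deviations from the group mean were compared over the 12268 genes with a mean of at least 5 CPM in a group. They correlated at r = 0.167 to 0.578 between iMAE-1.2 replicates 3 and 4 and iMAE-1.1 replicates 1 and 2. Between iMAE-1.2 replicates 1 and 2 and iMAE-1.1 replicates 3 and 4, r was 0.253 to 0.524. Every other pairing of the libraries of these guides had a negative r, down to -0.511. The values for each guide rest on the labels as given, and whether these libraries carry the guide that their label names was not tested. In the comparison of iMAE-1.2 with iMAE-1.1 none of the 10 genes was called, and none had an unadjusted p under 0.05 in edgeR or DESeq2. Over all genes edgeR called none (218 at an unadjusted p under 0.05) and DESeq2 called 2. Of the other pathway genes, the interleukin-1 receptor gene IL1R1 was called lower with both guides (log2 fold change -0.57 ± 0.08 SE, adjusted p = 0.00132 for iMAE-1.1, and -0.70 ± 0.09 SE, adjusted p = 0.000123 for iMAE-1.2). It was the only one called with iMAE-1.1. With iMAE-1.2 the adhesion gene VCAM1 (log2 fold change -0.58, adjusted p = 0.0209) and the cytokine IL18 (log2 fold change -0.44, adjusted p = 0.0267) were called lower too.

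With iMAE-126, whose comparison rests on SC replicates 1 and 2, 3 of the 10 genes were called lower and none higher, where 16.7% of all genes were called, 6.31% higher and 10.4% lower. The median log2 fold change was -0.26 over the 10 genes and 0.00 over all genes tested. TNFAIP3 had 14.3 and 13.8 CPM in iMAE-126, against 24.1 and 17.1 CPM in SC replicates 1 and 2 (log2 fold change -0.56 ± 0.13 SE, adjusted p = 0.00701). NFKB2 had 77.9 and 72.2 CPM in iMAE-126, against 108 and 87.6 CPM in SC replicates 1 and 2 (log2 fold change -0.38 ± 0.08 SE, adjusted p = 0.00577). NFKBIE, which encodes IkB epsilon, had 13.6 and 14.8 CPM in iMAE-126, against 20.3 and 18.3 CPM in SC replicates 1 and 2 (log2 fold change -0.44 ± 0.13 SE, adjusted p = 0.0283). In all 3 genes both iMAE-126 libraries lay below both SC libraries. The same held for RELB, NFKB1, RELA, NFKBIA and BIRC3, which were not called, and for BIRC3 the nearest libraries had 63.4 and 63.8 CPM. The share of all genes that separate in this way was not computed, so no result about the 10 genes is drawn from it. Mean gene length also separated these groups, at 3528 and 3573 bases in iMAE-126, against 3646 and 3716 bases in SC replicates 1 and 2, and its part in the result was not tested.

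RELB had the largest log2 fold change of the 10 genes in size and was not called. It had 14.6 and 16.4 CPM in iMAE-126, against 27.7 and 21.3 CPM in SC replicates 1 and 2 (log2 fold change -0.66 ± 0.23 SE, adjusted p = 0.0632). In a fit of iMAE-126 and SC alone, without the iMAE-1 guides, RELB was called (adjusted p = 0.000175). That fit called 4353 of all genes in place of 2550, and the cause of the gain was not tested. NFKB1 was near the threshold at a log2 fold change of -0.30 ± 0.10 SE (adjusted p = 0.0524). RELA, REL, NFKBIA, BIRC3 and NFKBIB had log2 fold changes of -0.21, -0.19, -0.13, -0.10 and -0.02, with adjusted p-values from 0.109 to 0.914. The calls hang on single libraries. None of the 10 was called without SC replicate 1 or without iMAE-126 replicate 2, and 2 were called without SC replicate 2 or without iMAE-126 replicate 1. Without SC replicate 1, the log2 fold change of TNFAIP3 was -0.30 (adjusted p = 0.148). Without the library set as a term, iMAE-126 is set against all 6 SC libraries, and 5 of the 10 genes were lower: TNFAIP3 (log2 fold change -1.38), RELB (-1.16), NFKB2 (-1.02), NFKBIA (-0.67) and NFKBIE (-0.61).

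**Figure D4:**
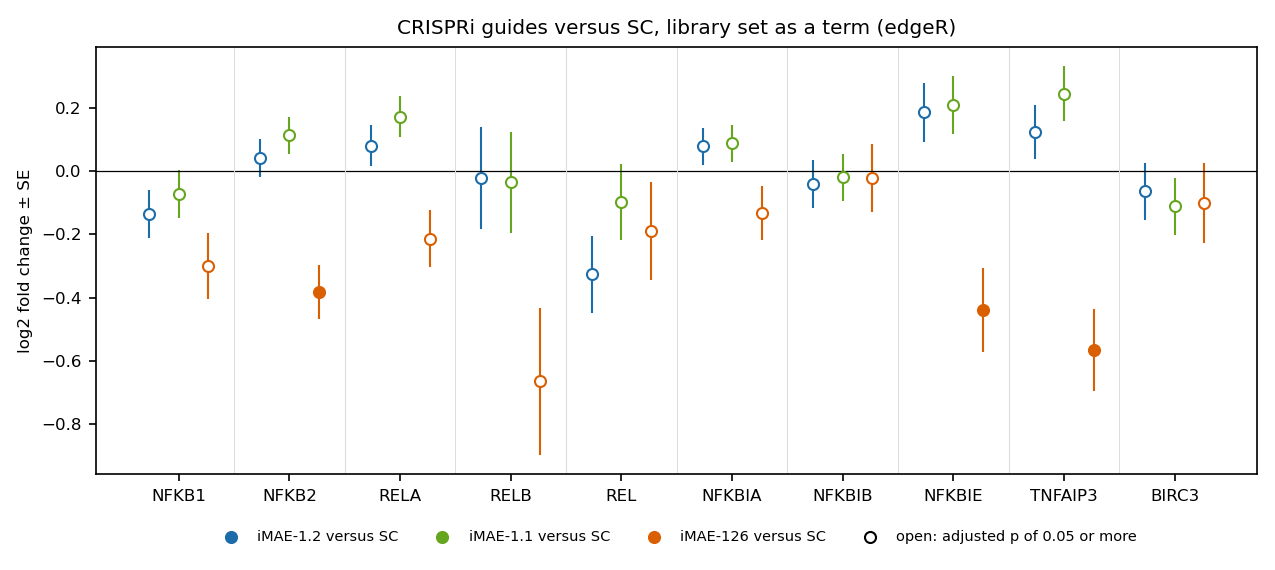
Log2 fold change versus SC (vertical axis) with its standard error for each gene (horizontal axis) with the guides iMAE-1.2, iMAE-1.1 and iMAE-126, fitted with library set as a term; filled points have an adjusted p under 0.05. Filled points are TNFAIP3, NFKB2 and NFKBIE with iMAE-126, and the values of the other 2 guides lie between -0.33 and 0.24.

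Some target genes had larger log2 fold changes than any of the 10 genes in the same iMAE-126 libraries. Of 22 targets 8 were called lower and 2 higher, where 16.7% of all genes were called. CXCL8 had 5.46 and 5.77 CPM in iMAE-126, against 22.5 and 18.8 CPM in SC replicates 1 and 2 (log2 fold change -1.88 ± 0.21 SE, adjusted p = 8.03e-05). IL6 had 2.61 and 3.16 CPM in iMAE-126, against 5.48 and 6.0 CPM in SC replicates 1 and 2 (log2 fold change -0.96 ± 0.15 SE, adjusted p = 0.000698). The chemokine CXCL1 (log2 fold change -0.97, adjusted p = 0.00802) and the adhesion gene ICAM1 (-0.72, adjusted p = 0.0108) were lower, whereas the chemokine CCL5 was higher (log2 fold change 0.96, adjusted p = 0.0029). The ligand TNF was lower (log2 fold change -1.24 ± 0.38 SE, adjusted p = 0.0337). Among 11 receptors IL1RAP was lower (log2 fold change -0.65) and IL1R1 higher (0.44). Of 22 adaptors and kinases 5 were lower, among them the IKK subunit gene CHUK (log2 fold change -0.59, adjusted p = 0.0021), and 1 was higher. The nuclear IkB gene NFKBIZ was the 1 of 14 other regulators that was called, and it was higher (log2 fold change 0.65, adjusted p = 0.0316).

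The order of the groups by mean CPM differed between genes. For TNFAIP3 it ran from OS-LM1 (153 ± 13 CPM, SD, n = 2) through iMAE-1.1, iMAE-1.2, SC and 786-M1A to iMAE-126 (14.1 ± 0.39 CPM, SD, n = 2) and 786-O (12.6 ± 1.4 CPM, SD, n = 2), and neighbouring groups overlapped from iMAE-1.1 to 786-M1A and not outside that stretch. NFKBIA had the same order and the same overlaps. NFKB1 ran from 786-M1A (86.2 CPM) and 786-O (68.7 CPM) to OS-LM1 (52.6 CPM) and the CRISPRi groups (47.2 to 40.6 CPM), with overlap between each neighbouring pair from OS-LM1 on. REL had 786-O and 786-M1A on top, overlapping at 25.8 and 25.5 CPM, and iMAE-1.2 last at 7.01 CPM. For NFKB2 and NFKBIB the iMAE-1 guides came first, overlapping each other, and 786-O last. SC means pool both library sets here, whereas the iMAE-1 guides are all in set B and iMAE-126 is all in set A. In set B, NFKBIB averaged 65.7 CPM in SC, above iMAE-1.1 (64.8 CPM) and iMAE-1.2 (64.0 CPM). NFKB2 averaged 180 CPM in SC of set B, below both guides (195 and 185 CPM). TNFAIP3 averaged 44.8 CPM in SC of set B and 20.6 CPM in SC of set A, on either side of 786-M1A (26.5 CPM). The part of the library set in these orders was not tested.

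Likeness between genes was described by Pearson's r of log2 CPM over the 22 libraries, which share lines, library sets and differences in mean gene length. Among the 45 pairs of the 10 genes, 10 had an r over 0.8 and 18 an r below 0. The closest pairs were NFKBIA with TNFAIP3 at 0.957, NFKB2 with NFKBIB at 0.945 and NFKB2 with RELB at 0.902. The most opposed pair was REL with NFKBIB at -0.903, while NFKB1 and REL had an r of 0.880. Among 12268 genes with enough counts, IL6 (0.991) and CXCL8 (0.979) were nearest to TNFAIP3, TRIM47 (0.975) and IL6 (0.973) to NFKBIA, and TNF (0.943) and NIFK (0.942) to RELB. PSMC3IP (0.977) was nearest to NFKB2, EIF4EBP1 (0.987) to NFKBIB, ORC6 (0.961) to NFKBIE, KIAA0100 (0.983) to REL, SLC39A6 (0.956) to NFKB1, PRNP (0.948) to BIRC3 and SLC7A6 (0.915) to RELA. The values of r are a description of these libraries only.

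**Figure D5:**
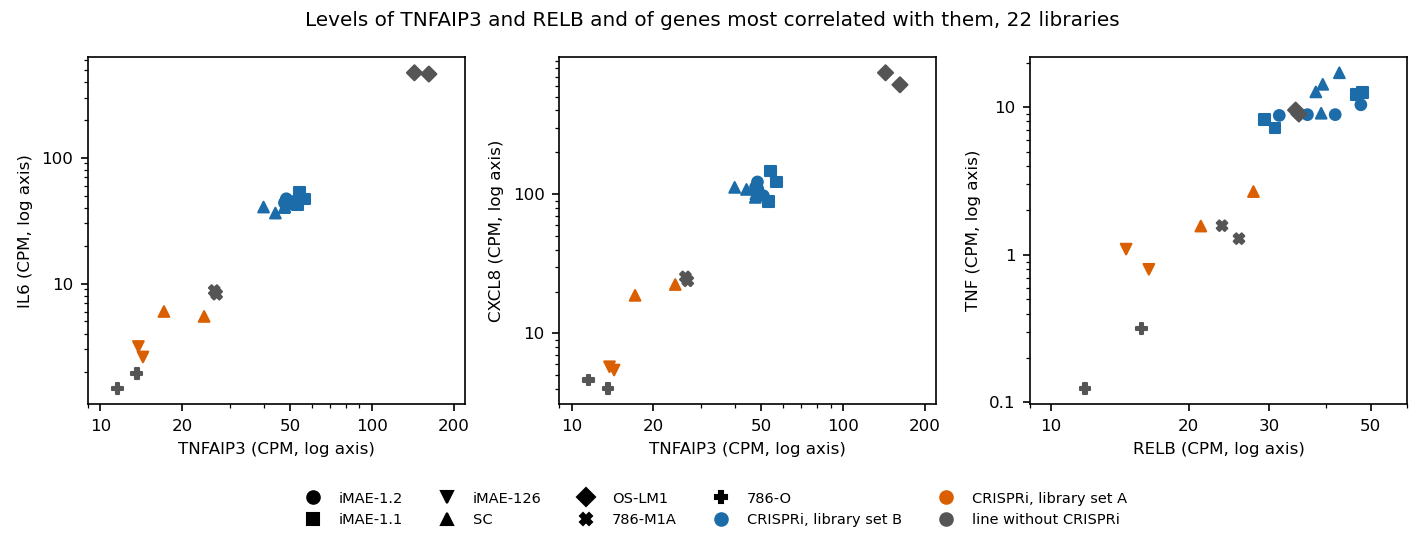
Level in CPM on log axes of IL6 and CXCL8 against TNFAIP3 and of TNF against RELB, 1 point per library, with the shape giving the group and the colour the library set as in the plot of levels. OS-LM1 is at the top right of the TNFAIP3 panels, with 144 and 162 CPM of TNFAIP3 and 472 and 461 CPM of IL6, and 786-O and iMAE-126 are at the bottom left; in the RELB panel OS-LM1 lies within the range of the CRISPRi libraries of set B.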

How the data were processed

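Stranded libraries of polyadenylated RNA (15 PCR cycles) were sequenced, per the labels' protocols. Bowtie2, RSEM and hg19 are named in the submitters' processing notes, without versions or a strand setting for the counting. Each deposited expected count is the authors' RSEM estimate of a gene's reads over RefSeq transcripts, per the file headers, and 40.8 to 43.0% of the counts above 0 of a library were not whole. The deposited TPM values were scaled by the authors for gene length and depth, per the file headers, and the deposited gene lengths were used for the mean gene length of a library.

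After rounding, counts were tested by edgeR 4.0.16 (R 4.3.3) with robust quasi-likelihood fits, TMM factors and a filterByExpr minimum count of 10. Calls needed a Benjamini-Hochberg adjusted p, taken over all genes tested, under 0.05. The 3 fits were of the 6 libraries of the lines, SC with 786-M1A, and the 16 CRISPRi libraries with the library set as a term. The sets were cut at the largest gap in the mean gene length of the CRISPRi libraries. CPM used TMM factors over all 22 libraries. The members and pathway lists were chosen with earlier results of these data known. The 10 members are always named, and of each other list at most the 6 called genes with the largest log2 fold change in size per comparison. Nearest genes were the 2 with the highest r among genes with a mean of at least 5 CPM in a group. Alternatives were DESeq2 1.42.0, limma 3.58.1 on log2(TPM + 1) and log2(TPM + 0.1), other factors and filters, subsets of the libraries and the replicate number as a block. Exchanging the OS-LM1 replicate numbers in the block was added after seeing the data. The fits were also run on simulated counts with known changes. These were drawn with the same spread for all genes and no difference between library sets, so that run does not cover such differences. Tables and figures were made with Python 3.11.15, pandas 2.3.3, numpy 2.4.6 and matplotlib 3.10.9.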

Additional observations from a re-analysis of the deposited data

How the results depend on the processing

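A reversal was counted only where the direction changed and the main fit or the alternative made a call. Of 750 results under alternatives other than leaving out a library, 696 kept their side of the threshold, 24 lost the call, 29 gained it and 1 reversed. Of 900 results without a single library, 830 kept their side, 54 lost the call, 16 gained it and none reversed. Results that kept their side include uncalled ones whose direction changed. The one reversal was TNFAIP3 in SC versus 786-M1A, at a log2 fold change of -0.25 with the replicate number as a block, which by its construction leaves only SC replicates 1 and 2 to set against 786-M1A. For 786-M1A versus 786-O, 4 of the 10 genes were called in place of 8 with limma on log2(TPM + 1), with limma on log2(TPM + 0.1) and with the replicate block, and 8733 of all genes in place of 5064 with the compared groups alone. For SC versus 786-M1A, 10 genes were called in place of 6 with SC replicates 3 to 6 alone. For iMAE-126 versus SC, 5 genes were called in place of 3 with DESeq2, with the compared groups alone and without the set term, 6 with limma at either pseudocount and 2 with the replicate block, where NFKBIE was not called (adjusted p = 0.0767). Of all genes, iMAE-126 had 4353 calls in place of 2550 with the compared groups alone and 1388 with the replicate block. The calls over all genes for iMAE-1.1 were 482 with DESeq2, 69 without the set term, 33 with SC replicates 3 with 5 and 4 with 6 summed and 6 with the replicate block, in place of 273. For iMAE-1.2 they were 655, 110, 64 and 10 in the same order, in place of 417, and iMAE-1.2 versus iMAE-1.1 had 2 calls with DESeq2 in place of 0. The cause of these shifts was not tested, beyond the fewer libraries or the wider set of controls that an alternative itself brings.

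With each library left out in turn, the 10 genes had 2 to 9 calls in 786-M1A versus 786-O, 7 to 9 in OS-LM1 versus 786-O, 5 to 9 in OS-LM1 versus 786-M1A, 3 to 10 in SC versus 786-M1A, 0 to 0 with either iMAE-1 guide and 0 to 4 with iMAE-126. The calls over all genes ran from 2259 to 8763, 7976 to 11421, 9088 to 11957 and 1999 to 9085 in these comparisons of lines and SC, and from 135 to 328 with iMAE-1.1, 201 to 467 with iMAE-1.2 and 728 to 2733 with iMAE-126. They were 0 throughout for iMAE-1.2 against iMAE-1.1. Fits that leave a group with 1 library assume that it varies like the other groups. Correlations of same-numbered deviations lay between -0.471 and 0.140, and no iMAE-1.1 library correlated best with its own number in iMAE-1.2. In groups of 2 libraries the deviations mirror each other, and SC deviations were taken from the mean over both library sets. Whether replicate numbers pair the samples can therefore not be decided in those comparisons. With the OS-LM1 numbers exchanged in the block, 8, 8 and 8 of the 10 genes were called in the 3 comparisons of lines. On log2(TPM + 1) the median over all genes was -0.17 for SC versus 786-M1A and -0.13 for OS-LM1 versus 786-O, and for SC none of the 10 genes was called higher and 4 lower. With 2 libraries in a group, small differences may go uncalled, and counts say nothing of PCR duplicates.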
